A study of Mus musculus with 66 samples.

Results

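The heat shock chaperones described here are 10 genes: Hspa1a, Hspa1b, Hsph1, Dnajb1, Hspb1, Hspa8, Hsp90aa1, Hsp90ab1, Hspd1 and Hspe1. They were chosen by name: the Ensembl gene identifiers of the deposited count tables were matched to symbols, and all 10 were found among 39179 genes. The RNA came from BC57, a mouse bladder cancer cell line grown in culture, and from normal mouse urothelium, the lining of the bladder, dissected from 9 mice. Each material was divided so that one portion was fixed in buffered formalin for 24 hours and embedded in paraffin (FFPE), and the other was frozen in liquid nitrogen (FF). Libraries were made with the Ovation SoLo kit from 50 pg, 250 pg or 2 ng of total RNA, with the SMARTer Pico kit from 250 pg or 2 ng, and, for the FF RNA alone, by poly(A) enrichment from 1 µg. This gave 22 groups of 3 repeat libraries, 66 in all: BC57 FFPE, BC57 FF, urothelium FFPE and urothelium FF with each low-input kit and amount, and BC57 FF and urothelium FF with poly(A).

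BC57 is a single cell line and its cells came from 1 harvested pellet. The design counts the urothelium of the 9 mice as 1 sample per preservation. No source used here gives the strain, age or sex of the mice. The 3 libraries of a group are repeats from the same RNA, so every p-value below measures the spread between repeat libraries and not between animals or cultures. The study set the low-input kits and fixed RNA against poly(A) libraries of frozen RNA; the comparisons here follow the chaperones through the same design.

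Chaperones bind unfolded or newly made proteins and keep them from clumping. Hsp70 proteins work in cycles driven by J-domain proteins and exchange factors, Hsp90 completes the folding of kinases and hormone receptors, small heat shock proteins hold unfolded clients, and the Hsp60 and Hsp10 pair folds proteins inside mitochondria. Under heat or other stress the transcription factor HSF1 binds repeats of the unit nGAAn in front of several of these genes and raises their transcription.

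The promoter windows of the inducible Hsp70 pair are shown because Hspa1a and Hspa1b are nearly the same gene next to each other on chromosome 17 and yet were counted at different ratios in BC57 and urothelium. Each is the 250 bases before the RefSeq start (GRCm38.p6), written 5′ to 3′ on the minus strand, at chr17:34972157-34972406 for Hspa1a and chr17:34959239-34959488 for Hspa1b. Capitals mark a pair of facing heat shock units, GAANNTTC or TTCNNGAA, searched on both strands (each form reads the same on either strand).

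Hspa1a: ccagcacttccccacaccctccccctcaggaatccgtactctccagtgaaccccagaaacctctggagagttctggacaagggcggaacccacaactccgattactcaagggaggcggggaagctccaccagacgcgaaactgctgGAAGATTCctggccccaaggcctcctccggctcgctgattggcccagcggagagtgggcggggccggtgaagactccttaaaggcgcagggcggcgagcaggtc

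Hspa1b: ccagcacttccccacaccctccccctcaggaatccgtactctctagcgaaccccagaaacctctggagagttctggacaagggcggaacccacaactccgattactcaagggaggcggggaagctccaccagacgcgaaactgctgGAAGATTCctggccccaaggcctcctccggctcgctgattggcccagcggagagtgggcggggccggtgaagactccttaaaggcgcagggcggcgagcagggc

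The 2 windows differed at 3 of 250 positions, C44T, T47C and T249G, given from Hspa1a to Hspa1b and counted from 1 at the 5′ end. Both held 1 such pair, whose first base lay 104 bases before the start. The same pair was found in 12.8% of the 32851 mouse promoter windows of this length, so its presence alone sets no gene apart.

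The window of Hspb1, at chr5:135887669-135887918 on the plus strand, is shown because this small heat shock gene followed another pattern after fixation. It held 2 pairs, the nearer beginning 97 bases before the start.

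Hspb1: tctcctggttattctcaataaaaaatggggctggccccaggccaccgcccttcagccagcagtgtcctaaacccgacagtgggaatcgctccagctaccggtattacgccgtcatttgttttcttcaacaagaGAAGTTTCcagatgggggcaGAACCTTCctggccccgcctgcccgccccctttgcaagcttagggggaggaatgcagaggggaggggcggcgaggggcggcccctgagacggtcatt

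Hspd1 and Hspe1, the mitochondrial pair, lie head to head on chromosome 1 and their annotated genes overlap by 112 bases, so reads from the overlap cannot be told apart unless strand was used. A run of 3 units (GAANNTTCNNGAA or TTCNNGAANNTTC), a pattern held by 0.466% of all windows, was present in the window of Hspe1 and in that of the Hspd1 start at position 55087932. The window of the other Hspd1 start, at position 55088243, held no pair, and the run lies inside the gene annotated from there. The 30 bases at chr1:55088053-55088082, written on the plus strand in the direction of Hspe1 and beginning 95 bases before its start, hold 3 overlapping pairs. The 30 bases of Hsph1 at chr5:149636351-149636380, on the minus strand, hold 1 pair. This pair begins 33 bases before the RefSeq start at position 149636336 and 54 before that at 149636315. It lies inside the gene annotated from position 149636376.

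Hspe1: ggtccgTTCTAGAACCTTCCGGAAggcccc

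Hsph1: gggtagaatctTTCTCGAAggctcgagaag

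Promoter windows were matched for 7 of the 10 members, and Hspa8, Hsp90aa1 and Hsp90ab1 were not among them. Dnajb1 held no such pair in its windows. These matches describe letters in a window and say nothing of whether a factor was bound there.

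On GRCm38, the inducible pair lies at chr17:34969190-34972156 (Hspa1a) and chr17:34956436-34959238 (Hspa1b), both on the minus strand. Hsph1 lies at chr5:149614287-149636376, Hspb1 at chr5:135887919-135889563, Dnajb1 at chr8:83608193-83612653 and Hspa8 at chr9:40800984-40810087. Hsp90aa1 lies at chr12:110690605-110702728, Hsp90ab1 at chr17:45567775-45573271, Hspd1 at chr1:55077835-55088243 and Hspe1 at chr1:55088132-55091307. All 10 are annotated as protein-coding.

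Total counts per library were 928722 to 4706030 in the 36 Ovation libraries, 651879 to 7152648 in the 24 SMARTer libraries and 18499591 to 36187226 in the 6 poly(A) libraries. The 10 chaperones took 0.553% to 1.5% of all counts in the 33 BC57 libraries, and 0.165% to 0.576% in 31 of the 33 urothelium libraries. The other 2 stood apart: both were the third library of a SMARTer group of FFPE urothelium, with totals of 780106 (2 ng) and 651879 (250 pg) counts. In them the summed CPM (counts scaled to the same total in every library) of the 10 genes were 792 at 2 ng, against 2557 and 2649 in the other libraries of that group, and 629 at 250 pg, against 2924 and 2746. All 10 members were lowest in the third library of both groups. The numbers of members called in comparisons of SMARTer FFPE urothelium with another group at the same input are given with and without them.

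Markers were used to check the labels. In poly(A) libraries the 9 urothelial markers summed to 300 to 326 CPM in BC57 and 12049 to 13854 CPM in urothelium. Upk3a, a uroplakin of the urothelial surface, averaged 0.046 CPM in BC57 and 1903 CPM in urothelium. The dissected urothelium also held other cells: the 8 fibroblast markers summed to 18.1 to 20.9 CPM in BC57 and to 11287 to 12806 CPM in urothelium. Smooth muscle (7 markers), endothelial (7) and immune (7) markers summed to 9.92 to 12.8, 7.06 to 9.22 and 26.4 to 28.2 CPM in BC57, against 246 to 279, 360 to 399 and 397 to 439 CPM in urothelium. In such bulk samples, fewer cells of a type and less RNA per cell cannot be told apart, and the part of these other cells in the differences below was not tested.

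Levels of different genes were compared per kilobase of exon (CPM per kb, scaled by the trimmed mean of M-values over all 66 libraries, means of 3 libraries). The length took in every annotated exon base of a gene. For Hspa8 that was 4301 bases, against 2394 in its longest protein-coding transcript, while Hspa1b had 2803 by both. Orders and shares per kilobase therefore depend on this choice. In poly(A) libraries of BC57, Hsp90ab1, the constitutive cytosolic Hsp90, was highest at 2024 CPM per kb. It was followed by Hspa8, the constitutive Hsp70, at 743, Hsp90aa1, the inducible Hsp90, at 652, Hspd1 (Hsp60) at 498, and Hspe1 (Hsp10) at 190 CPM per kb. Hspb1 (81.6), the Hsp110 exchange factor Hsph1 (40.8), the J-domain protein Dnajb1 (28.9), Hspa1b (20.5) and Hspa1a (0.84 CPM per kb) came lower. The order was different in poly(A) libraries of urothelium, where Hspb1 came next after Hsp90ab1 and Hspa8. With SMARTer on FF urothelium Hsp90aa1 came before Hspb1, at 150 against 81.6 (2 ng) and 135 against 71.7 CPM per kb (250 pg).

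In poly(A) libraries of urothelium, Hsp90ab1 stood at 980 and Hspa8 at 399 CPM per kb. Hspb1 followed at 171, Hsp90aa1 at 104, Hspd1 at 93.7 and Hspe1 at 70 CPM per kb. Hspa1b reached 64.4, Dnajb1 35.4, Hsph1 28.8 and Hspa1a 21.7 CPM per kb. Hsp90ab1 was the highest of the 10 in all 22 groups. Hspa1a was the lowest in all 11 BC57 groups.

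**Figure D1:**
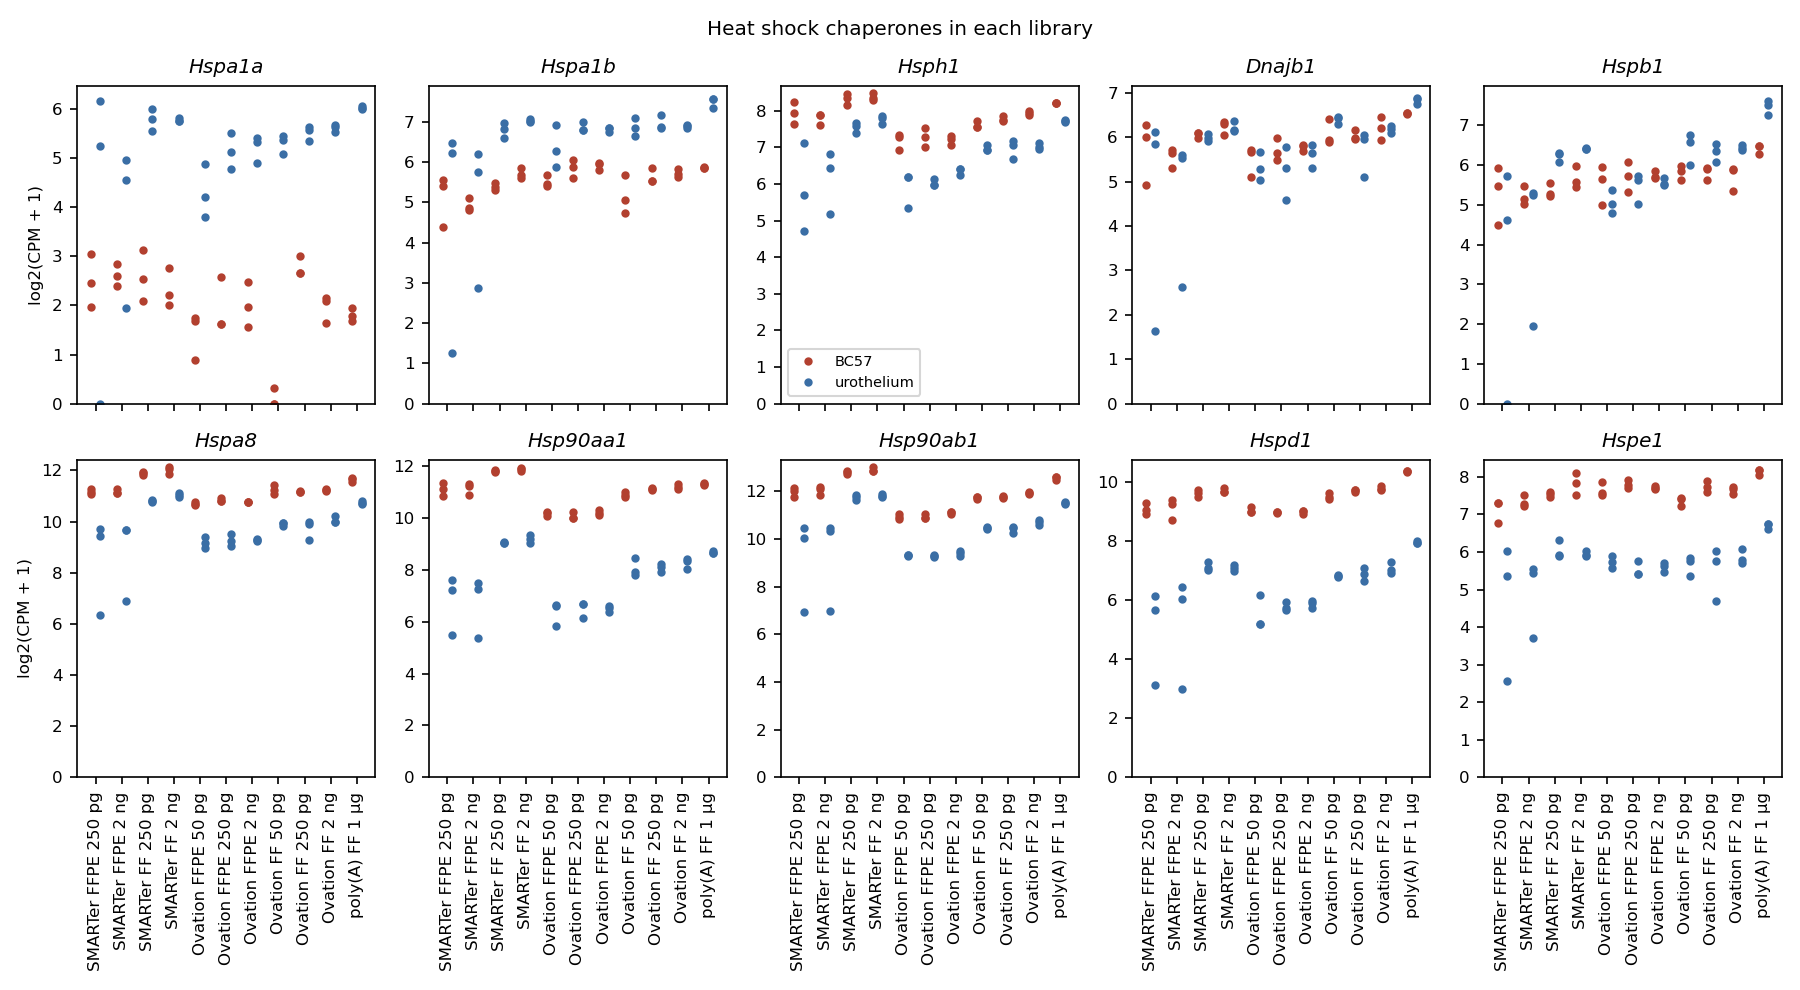
Level of each chaperone in every library, as log2(CPM + 1) with the 66 libraries scaled together, by kit, preservation and input along the x axis. Colours give BC57 and urothelium, each point is 1 library, and each panel has its own y axis. BC57 libraries lie above urothelium for Hsp90aa1 and Hspd1, and below it for Hspa1a except in the SMARTer FFPE groups, where the third urothelium library lies low in every panel.

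The first comparison asks how the chaperones differ between the cancer line and normal urothelium, tested with edgeR's quasi-likelihood test with Benjamini-Hochberg adjustment over all genes tested (called at an adjusted p under 0.05). In poly(A) libraries, 6 of the 10 were higher in BC57, 3 were lower and 1 was not called. Of all 17934 genes tested, 91.3% were called (42.8% higher and 48.5% lower in BC57), so being called does not set the chaperones apart. Their median log2 fold change was 0.94, against -0.12 over all genes. Hsp90aa1, Hsp90ab1, Hspa8, Hsph1, Hspd1 and Hspe1 were higher, Hspa1a, Hspa1b and Hspb1 were lower, and Dnajb1 was not called.

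Hspa1a, an inducible Hsp70, had 2.37, 2.95 and 2.13 CPM in BC57 libraries, against 54.5, 53.4 and 54 CPM in urothelium. The groups did not overlap, and Hspa1a was 22.5-fold lower in BC57 (log2 fold change -4.49 ± 0.0791 SE, adjusted p = 7.43e-22, edgeR, n = 3 each). Hspa1b, which codes for almost the same protein, had 56.5, 58.5 and 55.7 CPM in BC57, against 140, 157 and 156 CPM in urothelium. It was lower in BC57 by a smaller amount, with a log2 fold change of -1.41 ± 0.0478 (SE) and an adjusted p of 5.41e-17 (edgeR). The 2 genes are 99.23% identical over 2201 aligned bases, and another annotated gene, Gm20481, overlaps Hspa1a and matches it over 379 bases. No source used here says how reads that fit both were counted, so the split between them is uncertain. With the counts of all 3 added together, the log2 fold change was -1.95 ± 0.0427 (SE) and stayed called (adjusted p = 2.81e-20, edgeR).

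Hsp90aa1, which rises under stress and in many tumours, had 2505, 2584 and 2535 CPM in BC57, against 363, 334 and 334 CPM in urothelium. The groups were far apart, with a log2 fold change of 2.89 ± 0.0436 (SE, adjusted p = 5.93e-23, edgeR). Hsp90ab1 had 6048, 5962 and 6043 CPM in BC57, against 2417, 2464 and 2502 CPM in urothelium, and was higher by 1.29 ± 0.0368 on the log2 scale (SE, adjusted p = 2.78e-18, edgeR). Both cytosolic Hsp90 genes were thus higher in BC57 without overlap, the inducible one by more. Hspa8, which folds new proteins in unstressed cells, had 3190, 3074 and 3235 CPM in BC57, against 1435, 1425 and 1456 CPM in urothelium (log2 fold change 1.14 ± 0.0378 SE, adjusted p = 3.94e-17, edgeR).

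Hspd1 had 1300, 1322 and 1292 CPM in BC57, against 222, 201 and 200 CPM in urothelium. Its partner Hspe1 had 280, 272 and 280 CPM in BC57, against 83.1, 89 and 87 CPM in urothelium. Both were higher in BC57 without overlap, by 2.65 ± 0.045 for Hspd1 (adjusted p = 4.01e-22) and by 1.68 ± 0.0398 for Hspe1 (adjusted p = 1.12e-19) on the log2 scale (SE, edgeR). Hsph1, the exchange factor that releases nucleotide from Hsp70, had 288, 304 and 290 CPM in BC57, against 181, 171 and 175 CPM in urothelium, and was higher by 0.74 ± 0.0394 on the log2 scale (SE, adjusted p = 1.54e-13, edgeR).

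Hspb1, a small heat shock protein that stabilises actin and unfolded clients, had 85.1, 79.5 and 85.4 CPM in BC57, against 131, 151 and 159 CPM in urothelium. It was lower in BC57 without overlap (log2 fold change -0.82 ± 0.0561 SE, adjusted p = 1.23e-11, edgeR). Hspb1 has 2 near-identical copies in the tables, Hsp25-ps1 and Gm9817, which held a median of 22.2% of the summed counts of the 3 over all libraries, so its own count is uncertain. With the copies added, a choice made after seeing the data, its fold change was also -0.82 (adjusted p = 1.16e-11, edgeR). Dnajb1, the J-domain partner of the inducible Hsp70s, had 90.6, 95 and 90 CPM in BC57, against 91.8, 95.4 and 97.4 CPM in urothelium. These ranges overlapped and Dnajb1 was not called (log2 fold change -0.05 ± 0.042 SE, adjusted p = 0.254, edgeR). Without the first urothelium library it was called at -0.08 (adjusted p = 0.0339, edgeR).

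**Figure D2:**
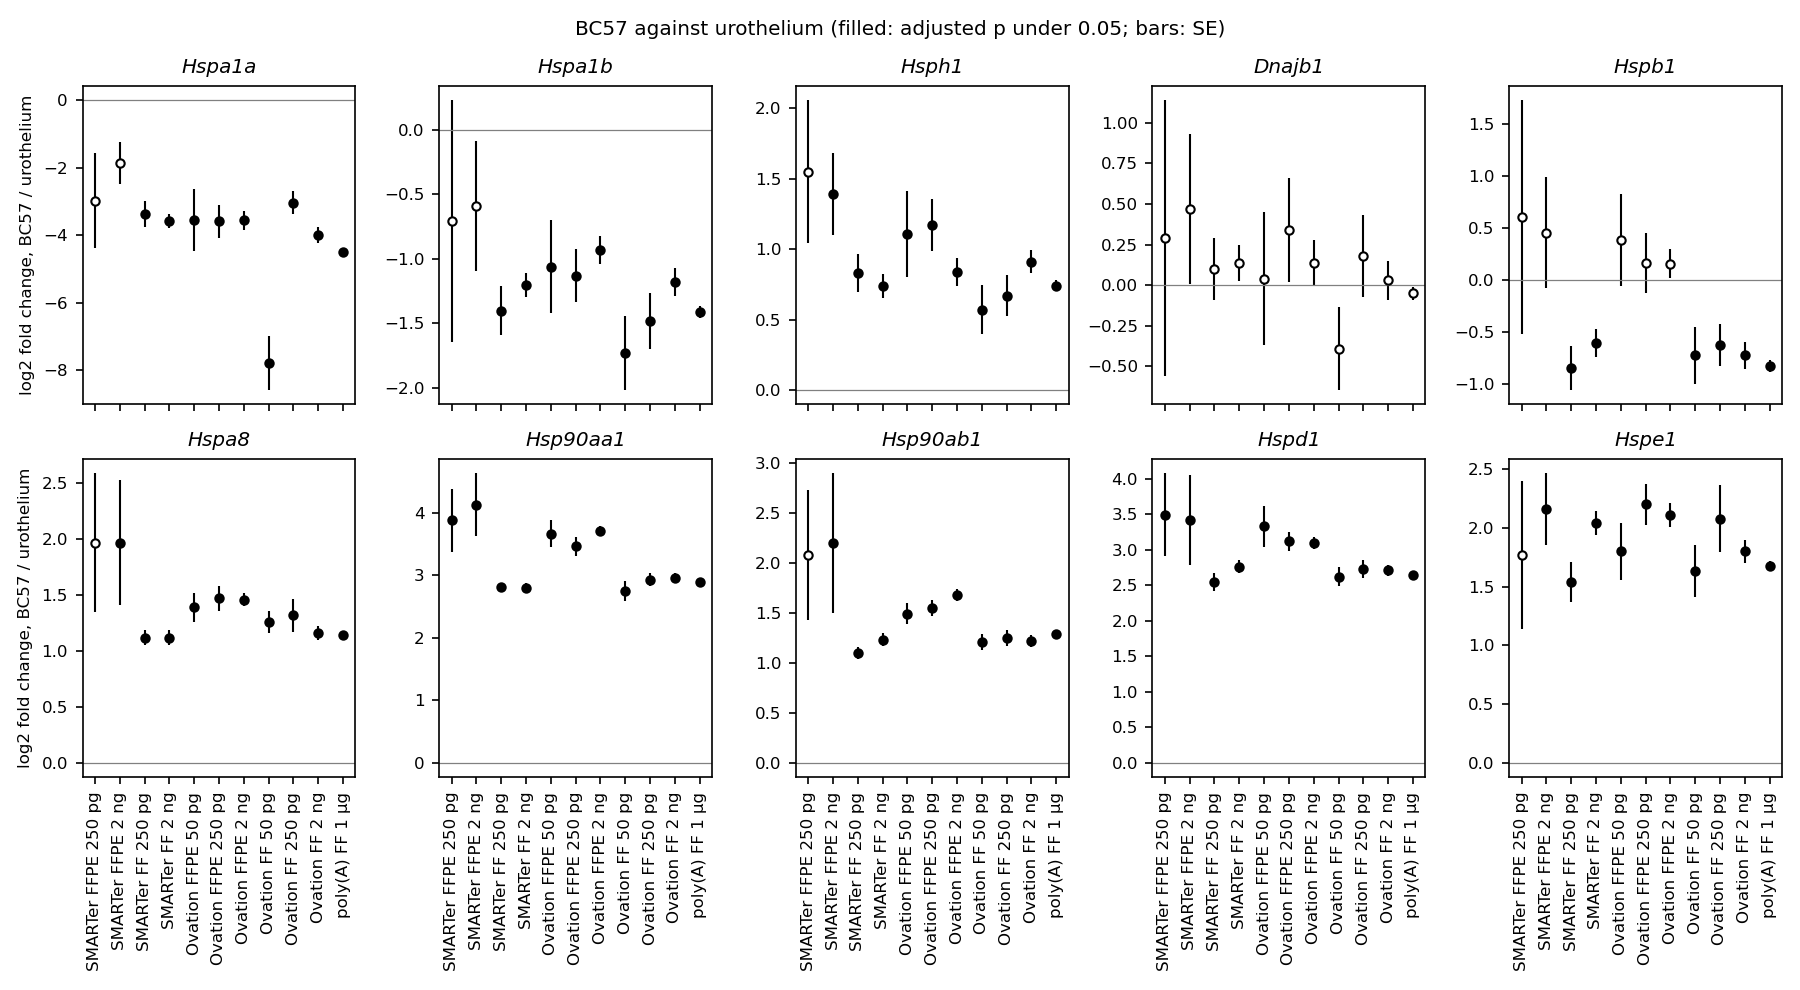
Log2 fold change of each chaperone in BC57 over urothelium, with its standard error, in each of the 11 comparisons of kit, input and preservation; filled points were called. Hsp90aa1, Hspd1, Hspe1, Hsp90ab1, Hspa8 and Hsph1 lie above 0 and Hspa1a and Hspa1b below 0 throughout, while Hspb1 lies below 0 on FF RNA and above 0 on FFPE RNA. The lowest Hspa1a point rests on 1 BC57 count.

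On FF RNA the low-input kits gave the same numbers of called members, and Dnajb1 was the one not called each time. In Ovation libraries 6 were higher and 3 lower in BC57 at each input. Of all genes, 45.2% were called at 50 pg (20.2% higher, 25% lower), 48% at 250 pg (21.6% higher, 26.4% lower) and 79.1% at 2 ng (37.6% higher, 41.4% lower). In SMARTer libraries 6 were also higher and 3 lower at both inputs, with 51.4% of all genes called at 250 pg (23.9% higher, 27.5% lower) and 77.5% at 2 ng (36.3% higher, 41.2% lower). Over these 6 FF comparisons, poly(A) included, the log2 fold change of Hsp90aa1 lay between 2.75 and 2.96, that of Hspd1 between 2.54 and 2.76, and that of Hspe1 between 1.54 and 2.08. Hspa8 lay between 1.12 and 1.32, Hsp90ab1 between 1.10 and 1.29, and Hsph1 between 0.57 and 0.91. Dnajb1 was called in none of them, with values from -0.39 to 0.18. At 50 pg Hsph1 had 0.50 and was no longer called without the third FF library of BC57.

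Low counts limited Hspa1a most. At 50 pg the 3 BC57 FF libraries held 1 Hspa1a count in all, against 387 in urothelium, a urothelium-over-BC57 ratio of 262 with a 95% counting interval of 46.7 to 10360. The fitted value there (-7.79) depends on the prior count and gives no bound. In the other 5 FF comparisons the log2 fold change of Hspa1a lay between -4.49 and -3.03, and that of Hspa1b over all 6 between -1.73 and -1.18. Hspb1 lay between -0.84 and -0.60 and was called each time, but at 50 pg and 250 pg with Ovation it lost the call without any 1 of 5 of the 6 libraries. With its copies added it was not called at 50 pg (-0.61, adjusted p = 0.092, edgeR).

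On FFPE RNA with Ovation, 6 were higher and 2 lower in BC57 at each input. Of all genes, 33.5% were called at 50 pg (14.7% higher, 18.8% lower), 52.2% at 250 pg (24% higher, 28.2% lower) and 77% at 2 ng (36.7% higher, 40.3% lower). The 2 lower genes were Hspa1a, between -3.59 and -3.55, and Hspa1b, between -1.13 and -0.93 on the log2 scale. At 50 pg neither was called without the second urothelium library (-3.20 for Hspa1a and -0.73 for Hspa1b), and Hspa1b lost the call without any 1 of 5 of the 6 libraries. Hsph1 at 50 pg was not called without the third BC57 library (1.03). Hspb1 was not called at any input, with log2 fold changes of 0.39, 0.17 and 0.16 at 50 pg, 250 pg and 2 ng. At 2 ng Hspb1 had 54.9, 49.8 and 48.6 CPM in BC57, against 43.7, 49.8 and 44.1 CPM in urothelium, and the libraries overlapped (adjusted p = 0.294, edgeR). On FFPE RNA with Ovation, Hsp90aa1 was 3.46 to 3.71 higher on the log2 scale and Hspd1 3.10 to 3.33 higher.

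With SMARTer on FFPE RNA, 2 members were called higher at 250 pg, Hsp90aa1 and Hspd1 (9.38% of all genes called, 3.8% higher), and 6 at 2 ng (30% called, 13.7% higher), with none called lower. At an unadjusted p under 0.05, 0 were lower at 250 pg and 1 at 2 ng. These groups hold the 2 libraries that stand apart. Without the third library of both FFPE groups, 6 were called at 250 pg (21.4% of all genes) and 8 at 2 ng (62.7%). Hsp90aa1 was called each time, with a log2 fold change of 4.13 ± 0.501 (adjusted p = 0.00198) at 2 ng with all libraries (SE, edgeR). It was 3.91 ± 0.181 (adjusted p = 3.28e-06, SE, edgeR) without the third urothelium library alone. Hspa1a had -1.86 ± 0.63 (adjusted p = 0.0605) with all libraries and was called at -2.23 ± 0.363 (adjusted p = 0.00133) without the third urothelium library alone (SE, edgeR).

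Shares within a library do not depend on how libraries are scaled. In poly(A) libraries Hspa1a made up 4.02%, 4.81% and 3.67% of the summed Hspa1a and Hspa1b counts in BC57, against 28%, 25.4% and 25.7% in urothelium. The exact (Clopper-Pearson) 95% intervals, which cover counting error only, ran from 2.89% to 6.24% over the BC57 libraries and from 24.2% to 29.5% over the urothelium libraries. Means over the other BC57 groups were 0.159% to 14.8%, and those over the other urothelium groups 19% to 33%, with SMARTer FFPE at 250 pg at 39.2% without the third library of that group. The groups did not overlap in 10 of the 11 comparisons of BC57 with urothelium, where the two-sided exact permutation test gave p = 0.1, the smallest that 3 libraries against 3 allow. They overlapped with SMARTer at 250 pg on FFPE RNA, where the third urothelium library held 0 of 2 counts.

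Per kilobase, Hspa1a and Hspa1b together made up 2.79% of the sum of Hspa1a, Hspa1b and Hspa8 in BC57 poly(A) libraries and 17.7% in urothelium. Whether reads that fit both Hspa1a and Hspa1b entered these counts is not known. Hsp90aa1 made up 24.4% of the 2 cytosolic Hsp90 genes in BC57 and 9.63% in urothelium. The libraries of the 2 groups did not overlap for either share (exact permutation p = 0.1 each, two-sided, n = 3 each). The Hsp90aa1 share separated BC57 from urothelium without overlap in all 11 comparisons.

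**Figure D3:**
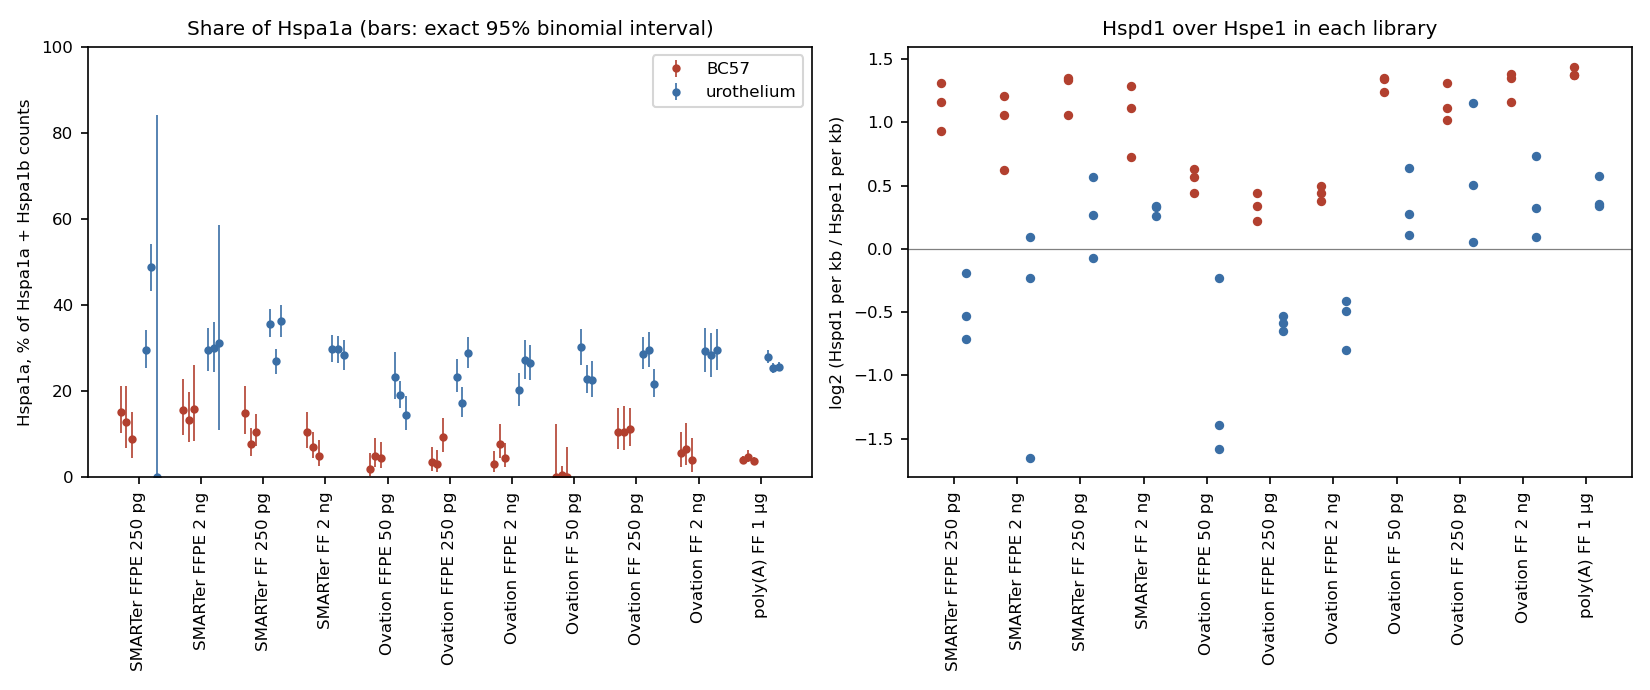
Hspa1a as a percent of the Hspa1a and Hspa1b counts with its exact 95% binomial interval (left), and the log2 ratio of Hspd1 to Hspe1 per kilobase (right), in each library by kit, preservation and input, with BC57 and urothelium in colours. The Hspa1a share is lower in BC57 except for the urothelium library with 0 of 2 counts, and the Hspd1 over Hspe1 ratio is lower in FFPE than in FF libraries with the Ovation kit.

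Other chaperone genes were counted from lists chosen with results of these data known. Of all genes in the poly(A) comparison of BC57 with urothelium, 91.3% were called (42.8% higher and 48.5% lower). In poly(A) libraries all 8 subunits of TRiC, the cytosolic chaperonin that folds actin and tubulin, were higher in BC57, with Cct6a at 2.51, Cct7 at 2.34 and Cct2 at 2.19 on the log2 scale. Of 11 Hsp90 cochaperones 9 were higher and 1 lower, led by Fkbp5 (3.81), the Hsp70 to Hsp90 adaptor Stip1 (2.21) and the kinase adaptor Cdc37 (1.88), with Unc45a at -0.13. Of 9 other mitochondrial chaperones and proteases 8 were higher and none lower, led by the mitochondrial Hsp70 Hspa9 (2.57) and the proteases Lonp1 (2.35) and Clpp (1.67). The medians were 1.97 for TRiC, 1.40 for the cochaperones and 1.40 for the mitochondrial list, against -0.12 over all genes.

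In the same poly(A) libraries 42.8% of all genes were higher and 48.5% lower in BC57. Of 13 chaperones of the endoplasmic reticulum 10 were higher and 3 lower. The higher ones were led by Hyou1 (2.10), Sdf2l1 (1.95) and the Hsp70 of that compartment, Hspa5 (1.88). The lower ones were the J-domain proteins Dnajc3 (-0.98) and Dnajb9 (-0.76) and the collagen chaperone Serpinh1 (-0.82). Other Hsp70, Hsp110, J-domain and exchange factor genes split evenly: of 19 tested, 8 were higher (Hspbp1 1.94, Hspa4 1.51) and 8 lower (Hspa2 -2.51, Dnaja4 -1.96, Dnajb5 -1.31). Of 5 other small heat shock genes tested 2 were higher, Cryab (4.92) and Hspb6 (2.48), and 2 lower, Hspb8 (-3.06) and Hspb7 (-2.23). In a list of 4 genes of heat shock factors and Hsbp1, which codes for a protein that binds HSF1, Hsf2 (1.31), Hsf1 (0.69) and Hsbp1 (0.13) were higher. All 8 immediate early genes, which respond within minutes to growth factors and handling, were higher in BC57, led by Atf3 (5.53), Egr1 (4.21) and Fosb (4.03).

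The second comparison asks how the chaperone counts differed between FFPE and FF RNA. No member tested was called higher on FFPE than on FF RNA by edgeR in any of the 10 comparisons. None of those tested was higher at an unadjusted p under 0.05. Hspa1a was not tested in BC57 at 50 pg with Ovation, and its counts there, higher on FFPE RNA, are given below. With Ovation at 2 ng, 6 of 10 were lower on FFPE RNA in BC57 (32.3% of all genes called, 15.6% lower) and 8 of 10 in urothelium (37.3% called, 17.9% lower). The members' median log2 fold change was -0.48 in BC57 and -0.72 in urothelium, against a median of 0 over all genes in both. With limma on the deposited log2 values the median of all genes in BC57 was 0.27, and Hspa1b (0.44) and Hspe1 (0.30) were called higher.

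Hsp90aa1 had 1158, 1121 and 1264 CPM in BC57 FFPE libraries, against 2375, 2281 and 2580 CPM in BC57 FF. In urothelium it had 84.2, 94.7 and 97.7 CPM in FFPE, against 268, 328 and 339 CPM in FF. Neither pair of groups overlapped, and Hsp90aa1 fell by 1.03 ± 0.0565 (adjusted p = 2.81e-16) in BC57 and by 1.76 ± 0.0886 (adjusted p = 3.36e-25) in urothelium on the log2 scale (SE, edgeR). Hsp90ab1 had 2217, 2145 and 2200 CPM in BC57 FFPE, against 3774, 3952 and 4006 CPM in FF, a log2 fold change of -0.84 ± 0.0486 (SE, adjusted p = 1.22e-15, edgeR). In urothelium its log2 fold change was -1.28 ± 0.0604 (SE, adjusted p = 1.41e-26, edgeR).

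Hspd1 had 517, 482 and 507 CPM in BC57 FFPE, against 850, 885 and 932 CPM in FF. Hspe1, counted in the same libraries, had 213, 207 and 200 CPM in FFPE, against 211, 189 and 204 CPM in FF. The mitochondrial pair thus parted: Hspd1 fell without overlap (log2 fold change -0.82 ± 0.0583 SE, adjusted p = 2.42e-13) while Hspe1 overlapped and was not called (0.04 ± 0.0733, adjusted p = 0.764, edgeR). In urothelium Hspd1 was at -1.20 ± 0.11 (adjusted p = 4.96e-14) and Hspe1 at -0.25 ± 0.14 (adjusted p = 0.155, SE, edgeR).

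The Hspd1 over Hspe1 ratio per kilobase, on a log2 scale, averaged 0.437 in BC57 FFPE and 1.3 in BC57 FF at 2 ng with Ovation. In urothelium it averaged -0.566 in FFPE and 0.382 in FF. The FFPE libraries lay below the FF libraries without overlap in all 6 Ovation comparisons (exact permutation p = 0.1 each, two-sided, n = 3 each, the smallest possible). With SMARTer at 2 ng the FFPE minus FF difference was -0.0786 in BC57, where the libraries overlapped (p = 0.6), and -0.904 in urothelium, where they did not (p = 0.1, both exact and two-sided, n = 3 each). Without the third FFPE library the urothelium difference was -0.377, again without overlap (2 libraries against 3).

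Hspa8 (-0.49 in BC57, -0.78 in urothelium), Hsph1 (-0.75 and -0.67) and Dnajb1 (-0.47 and -0.56) were also called lower on FFPE RNA in both at 2 ng with Ovation. Dnajb1 in BC57 was not called without the third FF library (-0.34), and its value was 0.06 after the libraries were thinned to equal totals. Hspb1 parted by sample: in BC57 it had 56.1, 50.9 and 49.6 CPM in FFPE, against 57.7, 60.2 and 39.6 CPM in FF (log2 fold change -0.01 ± 0.136 SE, adjusted p = 0.974, edgeR). In urothelium Hspb1 had 45.8, 52.1 and 45.4 CPM in FFPE, against 92.8, 83.3 and 84.9 CPM in FF, and fell by 0.87 ± 0.125 on the log2 scale (SE, adjusted p = 6.62e-08, edgeR). With its copies added the urothelium value was -0.62 (adjusted p = 1.73e-05, edgeR).

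Hspa1b, of the inducible Hsp70 pair, overlapped between the preservations in BC57. It had 61.6, 54.9 and 60.2 CPM in BC57 FFPE, against 56.5, 49.6 and 51.1 CPM in FF, and was not called (0.17 ± 0.119 SE, adjusted p = 0.296, edgeR). It was not called in urothelium either (-0.06 ± 0.0963 SE, adjusted p = 0.661, edgeR). Hspa1a, at 0.05 in BC57, was not called there, and it was called in urothelium at -0.39 ± 0.155 (SE, adjusted p = 0.0432, edgeR), a call that DESeq2 did not make (adjusted p = 0.123). It was also lost without any 1 of 4 of the 6 libraries, with -0.24 without the first FFPE library. With the counts of Hspa1a, Hspa1b and Gm20481 added together, the urothelium value was -0.15 and not called (adjusted p = 0.139, edgeR).

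**Figure D4:**
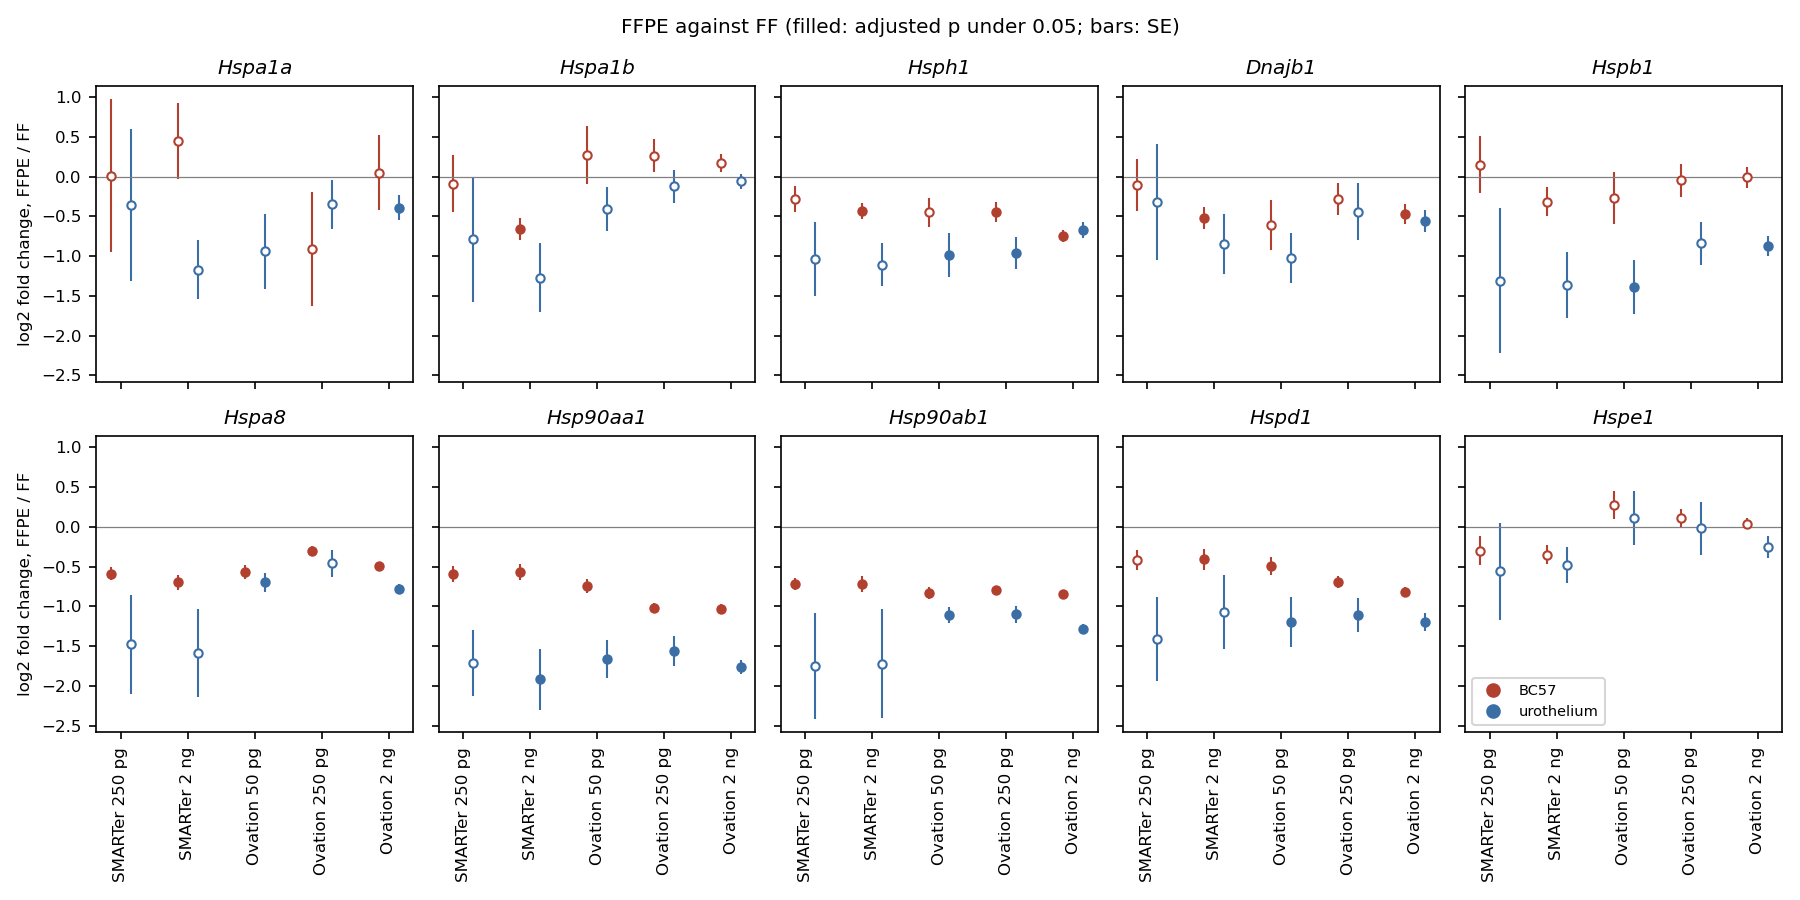
Log2 fold change of each chaperone on FFPE over FF RNA, with its standard error, in BC57 and urothelium by kit and input; filled points were called. Hsp90aa1, Hsp90ab1, Hspa8 and Hspd1 lie below 0 throughout, Hspe1 and Hspa1b were called in none of the Ovation comparisons, and the SMARTer urothelium values have wide errors.

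At 50 pg and 250 pg with Ovation, Hsp90aa1, Hsp90ab1 and Hspd1 were called lower on FFPE RNA in both samples. In BC57 with Ovation, 4 of the 9 members tested were lower at 50 pg (3.96% of all genes called, 1.41% lower) and 5 at 250 pg (15.3% called, 6.64% lower). Hspa1a was not tested at 50 pg, with 23 counts in FFPE and 1 in FF. Hspd1 (-0.49) lost its call at 50 pg without any 1 of 4 of the 6 libraries. In urothelium 6 were lower at 50 pg (3.98% called, 1.65% lower) and 4 at 250 pg (3.3% called, 1.45% lower). These urothelium counts depended on single libraries: without 1 library they ran from 3 to 5 at 50 pg and from 2 to 6 at 250 pg. The highest at 250 pg, without the third FF library, came with 7.18% of all genes called, against 3.3% with all libraries. With the counts of near-identical copies added, 3 were lower at 50 pg, and Hspb1 (-1.06, adjusted p = 0.0714), Hspd1 (-1.16, adjusted p = 0.0501) and Hsph1 (-0.99, adjusted p = 0.0507) were not called (edgeR).

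With SMARTer in BC57, 3 members (Hspa8, Hsp90aa1 and Hsp90ab1) were lower at 250 pg (2.2% of all genes called, 0.638% lower) and 7 at 2 ng (17.8% called, 8.57% lower). At 2 ng Hsp90ab1 was at -0.72 ± 0.098 (adjusted p = 2.28e-04), Hspa8 at -0.70 ± 0.0982 (adjusted p = 2.82e-04) and Hspa1b at -0.66 ± 0.142 (adjusted p = 0.00546, SE, edgeR). Hspa1b thus fell with SMARTer at 2 ng, with 30.7, 25.3 and 26 CPM in FFPE against 43.5, 41.4 and 44.4 CPM in FF, whereas it was not called with Ovation. Hspe1 was at -0.35 (adjusted p = 0.0646, edgeR) and became called at -0.34 (adjusted p = 0.00723) with the replicate number as a block. In urothelium no member was called by edgeR at 250 pg (0% of all genes called), where 4 were lower at an unadjusted p under 0.05 and DESeq2 called 1. At 2 ng 1 was called, Hsp90aa1 (1.87% of all genes, 0.551% lower). Without the third FFPE library 9 were lower at 2 ng (27.5% of all genes) and 3 at 250 pg (1.99%).

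The cell markers also differed between FFPE and FF urothelium, where 37.3% of all genes were called at 2 ng with Ovation (17.9% lower). At 2 ng with Ovation the urothelial markers summed to 5344 to 5565 CPM in FFPE and 7222 to 7401 CPM in FF, with 6 of 9 called lower. The 8 fibroblast markers summed to 13365 to 13498 CPM in FFPE and 9899 to 10208 CPM in FF, with 4 called higher and 2 lower. The part of these cells in the urothelium values was not tested. In BC57 the fibroblast markers summed to 23.5 to 31.8 CPM in FFPE and 23.4 CPM in each FF library.

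Other chaperone lists differed in direction on FFPE RNA at 2 ng with Ovation, where 15.6% of all genes were lower in BC57 and 17.9% in urothelium. All 8 TRiC genes were called lower in BC57 (median -0.68) and in urothelium (median -0.98, with Cct7 at -1.79). Of 13 chaperones of the endoplasmic reticulum 11 were lower in BC57 (Hsp90b1 -0.95, Pdia3 -0.82, Hspa5 -0.75) and 10 in urothelium. Of 11 Hsp90 cochaperones 9 were lower and 1 higher in BC57 (Stip1 -0.95, Cdc37 -0.85, and Ahsa2 at 0.31), and 6 were lower and 1 higher in urothelium. Of other Hsp70, Hsp110, J-domain and exchange factor genes 8 of 17 tested were lower and none higher in BC57, and 10 of 18 were lower and 1 higher in urothelium. Of the mitochondrial list 5 of 9 were lower in BC57 and 4 of 9 in urothelium, with none higher. Both other small heat shock genes tested in BC57 were higher, Hspb6 (0.45) and Cryab (0.27), and none of 3 was called in urothelium. In the heat shock factor list Hsbp1 was the 1 of 3 tested that was called, higher in BC57 (0.50) and in urothelium (0.39). Of the immediate early genes 4 of 8 tested were higher and 1 lower in BC57, where 32.3% of all genes were called in either direction, and none of 6 was called in urothelium, where 37.3% were.

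Whether the FFPE over FF change of the members differed between BC57 and urothelium was tested as an interaction, again on repeat libraries of the same RNA. With Ovation at 2 ng, 4 of 10 members were called, where 5.9% of all 14527 genes were, 4.26% in the positive direction. The difference, BC57 minus urothelium, was 0.83 ± 0.187 for Hspb1 (adjusted p = 0.00203), 0.70 ± 0.108 for Hsp90aa1 (adjusted p = 3.52e-06) and 0.42 ± 0.0833 for Hsp90ab1 (adjusted p = 4.56e-04) on the log2 scale (SE, edgeR). Hspa8 was just called at 0.26 ± 0.0834 (adjusted p = 0.045, SE, edgeR). In all 4 the FFPE over FF change was less negative in BC57 than in urothelium. The Hspa8 call was lost without any 1 of 7 of the 12 libraries and with DESeq2 (adjusted p = 0.0552). With SMARTer at 2 ng none of the 10 was called by edgeR with all libraries (0% of all genes), 3 were positive at an unadjusted p under 0.05, and DESeq2 called 1. Without the third urothelium FFPE library alone, 3 were called (1% of all genes): Hsp90aa1 (1.17), Hsp90ab1 (0.61) and Hspa8 (0.57). Hsph1 was not called there (0.63, adjusted p = 0.0957, edgeR). With the third BC57 FFPE library left out too, 4 were called (3.24% of all genes): Hsp90aa1 (1.26), Hsph1 (0.69), Hsp90ab1 (0.68) and Hspa8 (0.58).

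The third comparison asks how the chaperone counts differed between the kits. The counts of each kit were deposited separately, so a kit and its set of counts cannot be told apart. At 2 ng on FF RNA, the same 4 members were higher with SMARTer than with Ovation in BC57 (52.9% of all genes called, 26.7% higher) and in urothelium (48.5% called, 24.6% higher): Hsp90ab1, Hspa8, Hsp90aa1 and Hsph1. None was called lower, also at an unadjusted p under 0.05. In BC57 Hsp90ab1 had 7394, 7248 and 7415 CPM with SMARTer, against 3492, 3656 and 3741 CPM with Ovation. It did not overlap and was higher by 1.02 ± 0.0496 in BC57 (adjusted p = 6.42e-14) and by 1.04 ± 0.0665 in urothelium (adjusted p = 4.83e-16) on the log2 scale (SE, edgeR).

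Hspa8 was higher with SMARTer by 0.80 in BC57 and 0.88 in urothelium, Hsp90aa1 by 0.66 and 0.86, and Hsph1 by 0.46 and 0.67 on the log2 scale. The other 6 lay between -0.10 and 0.49 and were not called. With its copies added, Hspb1 was called higher with SMARTer, by 0.31 in BC57 and 0.47 in urothelium. On FFPE RNA of BC57 (34.4% of all genes called, 17.3% higher and 17.1% lower) 5 were higher with SMARTer, Hspd1 (0.36) joining these 4, and Hspa1b was lower, with 33, 27.3 and 28.2 CPM with SMARTer against 54.2, 48.3 and 52.9 CPM with Ovation (log2 fold change -0.81 ± 0.144 SE, adjusted p = 4.69e-04, edgeR). The Hspd1 call was lost without any 1 of 5 of the 6 libraries. On FFPE urothelium none was called by edgeR (1.13% of all genes) or DESeq2, 1 was lower at an unadjusted p under 0.05, and 5 were called without the third SMARTer library (27.9%).

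**Figure D5:**
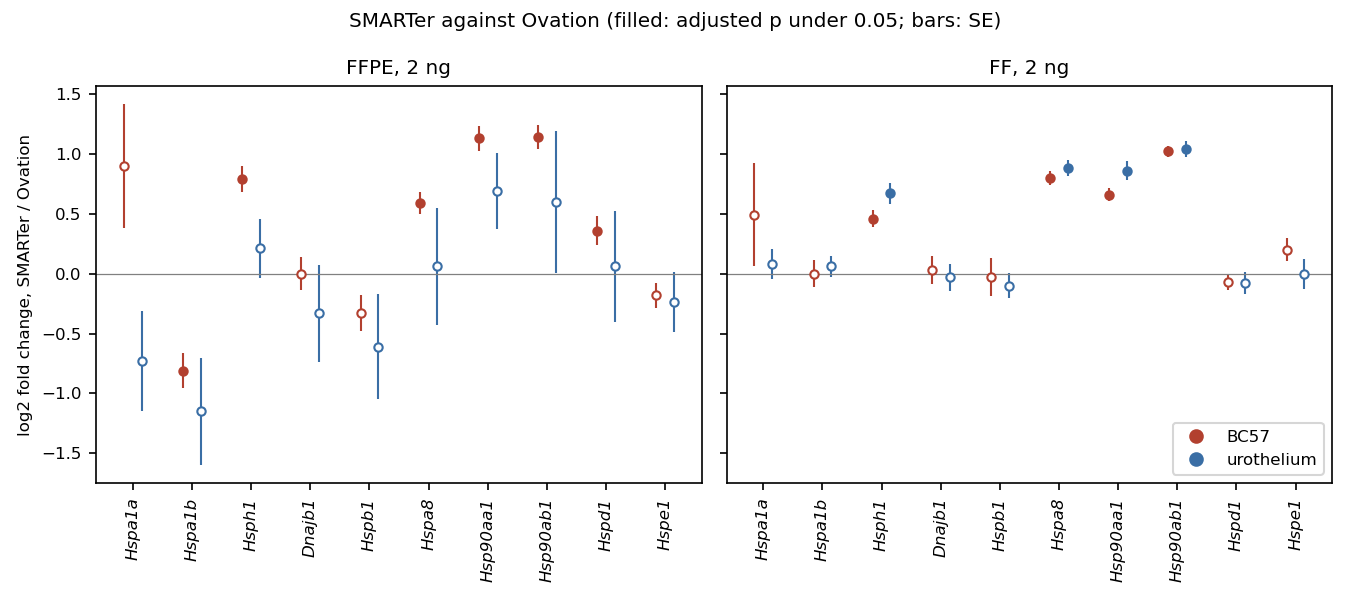
Log2 fold change of each chaperone with SMARTer over Ovation at 2 ng, with its standard error, on FF and FFPE RNA of BC57 and urothelium; filled points were called. Hsp90ab1, Hspa8, Hsp90aa1 and Hsph1 lie above 0 on FF RNA in both samples, while Dnajb1, Hspd1 and Hspb1 lie near 0 on FF RNA.

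Against poly(A) libraries, Ovation at 2 ng gave 2 members higher and 4 lower in BC57 (59.9% of all genes called, 30.3% higher and 29.6% lower) and 8 lower in urothelium (56.7% called, 28.6% lower). Hspb1 was lower in both, by 0.36 ± 0.0966 in BC57 (adjusted p = 0.00235) and by 0.62 ± 0.0861 in urothelium (adjusted p = 4.51e-07, SE, edgeR). SMARTer at 2 ng gave 6 higher and 2 lower in BC57 (57.5% called, 29.5% higher and 27.9% lower) and 4 higher and 4 lower in urothelium (57.7% called, 29% higher and 28.7% lower). Hsp90aa1 was higher with SMARTer than with poly(A) by 0.92 in BC57 and 0.88 in urothelium, and Hspd1 was lower by 0.29 and 0.52 on the log2 scale. With its copies added, Hspb1 had -0.01 for SMARTer against poly(A) in urothelium and 0.10 in BC57. These poly(A) comparisons also differ in input, 2 ng against 1 µg, so kit and input cannot be told apart.

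The last comparison asks whether less RNA changed the counts within a kit. The 8 comparisons set 50 pg (Ovation) or 250 pg (SMARTer) against 2 ng, and Ovation at 250 pg was not tested against 2 ng. No member tested was called by edgeR in any of the 8, where 0% to 0.0266% of all genes were called. Over the 8 comparisons 4 member values passed an unadjusted p under 0.05, and DESeq2 called 0. With limma on the deposited log2 values 5 members were called lower in BC57 and 1 in urothelium for 50 pg against 2 ng on Ovation FFPE RNA, where that scaling moved the median of all genes by -0.61 in BC57 and -0.63 in urothelium. The fold changes of Hsp90ab1 lay between -0.07 and 0.12 and those of Hspa8 between -0.05 and 0.17 on the log2 scale. For SMARTer FFPE urothelium these values rest on the 2 libraries that stand apart: without the third library at 250 pg Hsp90ab1 was at 0.52 and Hspa8 at 0.47, without that at 2 ng they were at -0.37 and -0.33, and without both at 0.08 and 0.11. Hspa1a ranged more widely, from -0.71 to 1.07, and was not tested at 50 pg in BC57. At 50 pg the BC57 FF libraries held 0, 1 and 0 counts of Hspa1a, against 21 in all at 2 ng.

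The genes whose mean levels over the 22 groups were most like a member's were ranked by Pearson's r among 10660 genes. They included Pik3r3 (0.971) and Tbc1d9 (0.970) for Hspa1a, and Itga3 (0.996) and Mdh2 (0.995) for Hspd1. For Hspb1 they included Tecr (0.936) and G6pdx (0.933). The points share libraries and fall into BC57 and urothelium, so these values describe a contrast of 2 samples.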

How the data were processed

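RNA-seq counts per gene were deposited in 3 tables, 1 per kit, beside log2 values. Per the submitters' processing notes, reads were aligned to mm10 with STAR and counted with featureCounts, with SAMtools also named; no source used here names versions, annotation or strand use. Those deposited log2 values were recomputed from the deposited counts as log2 of the count times 1000 over the library's upper quartile of counts above 0, plus 1, to within 5.33e-14.

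Ensembl identifiers were matched to GENCODE M21 (37693 of 39179 genes). The 10 members and all gene lists were chosen with earlier results of these data known. Counts were tested in 39 comparisons with edgeR 4.0.16 in R 4.3.3 (quasi-likelihood test, trimmed mean of M-values scaling, filterByExpr, Benjamini-Hochberg adjustment over all genes tested, threshold 0.05). Each comparison was fitted on its own 2 groups, or 4 for the interaction, and CPM beside a fold change are scaled within that comparison. Standard errors are the absolute log2 fold change over the square root of F. Shares have exact 95% binomial intervals, which cover counting error only, and ratios were compared with two-sided exact permutation tests.

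Alternatives were DESeq2 1.42.0, its size factors in edgeR, no low-count filter, limma 3.58.1 on the log2 values, the replicate number as a block, libraries thinned to 651879 counts, each library left out, and the third SMARTer FFPE libraries left out. Adding near-identical copies (at least 95% identity over 200 bases) was chosen after seeing the data. It gives Hspa1a and Hspa1b the same sum, which is counted once for each of them. Replicate numbers were taken to pair libraries where every same-numbered pair correlated over 0.1 in its deviations, which held in 5 SMARTer comparisons. The edgeR procedure was tested on simulated data. Low counts limit the precision for Hspa1a. Genes named from other lists are up to 3 per direction with the largest fold change among those called. Likeness was Pearson's r of log2(CPM + 1) over the 22 group means, among genes reaching 20 CPM in at least 1 group. Some of the genes most like a member are not reported here.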

Additional observations from a re-analysis of the deposited data

Results flagged for a closer look

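The FFPE over FF change differed between BC57 and urothelium for 4 members with Ovation at 2 ng, by the interaction test with edgeR. The test rests on repeat libraries of the same RNA, so fixation and the portion taken cannot be told apart. The part of other cells in the urothelium values was not tested. The difference, BC57 minus urothelium, was 0.83 for Hspb1, 0.70 for Hsp90aa1, 0.42 for Hsp90ab1 and 0.26 for Hspa8 on the log2 scale. The Hspb1 call was lost when libraries were thinned (0.73, adjusted p = 0.209), and the Hspa8 call was lost with DESeq2 and when thinned.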

How the results depend on the processing

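Of 5166 recomputed fold changes of members, 4594 kept their direction and side of the threshold, 190 lost and 85 gained a call, 279 values with no call moved and 18 reversed. The cause of each change was not tested unless stated. DESeq2 moved the number of members called to 5 for BC57 against urothelium with SMARTer FFPE at 250 pg (from 2 with edgeR), to 5 for FFPE against FF in SMARTer urothelium at 2 ng (from 1), to 1 at 250 pg (from 0), and to 1 for the SMARTer interaction (from 0). Without the low-count filter the 2 SMARTer FFPE comparisons of BC57 with urothelium gave 4 at 250 pg and 3 at 2 ng, and FFPE against FF in SMARTer urothelium at 2 ng gave 0. With limma on the log2 values, 0 were called for FFPE against FF in Ovation urothelium at 250 pg and in SMARTer BC57 at 2 ng, 3 for SMARTer against poly(A) in BC57, and 5 (BC57) and 1 (urothelium) for 50 pg against 2 ng on Ovation FFPE RNA. Thinning, which lowers depth, gave 4 for FFPE against FF in SMARTer BC57 at 2 ng, 2 for the Ovation interaction, 3 and 3 for Ovation against poly(A) in BC57 and urothelium, and 5 for SMARTer against poly(A) in BC57. Adding copies gave 3 for FFPE against FF in Ovation urothelium at 50 pg. Without the third SMARTer FFPE libraries of both BC57 and urothelium, 6 were called for BC57 against urothelium at 250 pg (21.4% of all genes) and 4 for the SMARTer interaction (3.24%).

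Leaving out 1 library kept the count within 1.5 times in 31 of 39 comparisons. In the other 8 it ran from 0 to 6 (BC57 against urothelium, SMARTer FFPE, 250 pg) and from 2 to 8 (2 ng), the highest in both without the third urothelium library; 0 came without the second urothelium library, and 2 without the first or second BC57 or the first urothelium library. It ran from 3 to 5 for FFPE against FF in Ovation urothelium at 50 pg, 2 to 6 at 250 pg, 0 to 3 in SMARTer urothelium at 250 pg and 0 to 9 at 2 ng, 0 to 3 for the SMARTer interaction, and 0 to 5 for SMARTer against Ovation on FFPE urothelium. The share of all genes called moved as well. For BC57 against urothelium with SMARTer FFPE it was 18.1% (250 pg) and 47.7% (2 ng) without the third urothelium library, against 9.38% and 30% with all. For FFPE against FF in Ovation urothelium at 250 pg it was 7.18% without the third FF library, against 3.3% with all.

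Reversed fold changes came from 3 settings. Thinning gave Dnajb1 0.0581 for FFPE against FF in Ovation BC57 at 2 ng. With copies added, the value for Hspa1a is that of Hspa1a, Hspa1b and Gm20481 summed, where the copies held 80.5% of the counts over all libraries. It was -0.52 (FFPE against FF, SMARTer BC57, 2 ng), -0.65 (SMARTer against Ovation, BC57 FFPE) and -0.16 (Ovation against poly(A), urothelium). Adding copies gave Hspb1 0.31 and 0.47 (SMARTer against Ovation, BC57 FF and urothelium FF) and 0.10 (SMARTer against poly(A), BC57). The log2 values with limma gave Hspa8 -0.43, Hsp90aa1 -0.39 and Hspd1 -0.30 (50 pg against 2 ng, BC57 Ovation FFPE), Hsp90ab1 -0.40 (the same in urothelium), Hspa1b -0.35, Hsph1 -0.49, Dnajb1 -0.55 and Hsp90aa1 -0.30 (Ovation against poly(A), BC57), Hspa1a -0.24 and Hsp90aa1 -0.25 (the same in urothelium), and Hspa1b -0.0929 (SMARTer against poly(A), BC57). That scaling moved the median of all genes by -0.57 for Ovation against poly(A) in BC57 and -0.28 in urothelium.

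With the replicate number as a block, calls were lost for Hspb1 in BC57 against urothelium on Ovation FF RNA (adjusted p = 0.0723 at 50 pg and 0.0645 at 250 pg), for Hspa1b on Ovation FFPE RNA at 50 pg (0.0767) and for Ovation against poly(A) (0.0805 in BC57, 0.0521 in urothelium). Hsp90aa1 lost its call for FFPE against FF in SMARTer urothelium at 2 ng (0.0923), leaving a count of 0. Hspe1 gained a call for FFPE against FF in SMARTer BC57 at 2 ng (0.00723) and Hspd1 for the Ovation interaction (0.0277). By the correlation rule above, the numbers were taken to pair libraries in the SMARTer BC57 comparison. Elsewhere among these they were taken as only a label. The block changed no other call.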

Other observations

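Of 8 genes named after a member (its symbol followed by -ps or -rs) or being Hspa1l, 2 passed the count filter in poly(A) libraries. Hspd1-ps3, annotated as a processed pseudogene and 99.01% identical to Hspd1 over 1722 bases, had a log2 fold change of 2.81 in BC57 over urothelium (adjusted p = 1.40e-11, edgeR). Hspa1l, which lies beside the inducible Hsp70 pair, had -0.06 (adjusted p = 0.665, edgeR). Counts assigned to Hspd1-ps3 were 3984 over all libraries.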
